A study of Aspergillus oryzae with 20 samples.

Results

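Transcripts of Aspergillus oryzae, the mould that makes koji, were compared between 5 libraries of a strain lacking admA (∆admA) and 5 libraries of its deletion control (Deletion-control), 10 of the 20 libraries of the series. Both strains descend from RIB40. The genotype of ∆admA is written del-pyrG del-admA[pyrG+ ligD+] and that of the control del-pyrG[pyrG+ ligD+], so both lack the original pyrG and carry pyrG and ligD again. The other 10 libraries were 5 of a strain lacking both genes (∆admA∆admB, which lacks pyrG, admA and admB and carries pyrG+ ligD+) and 5 of a strain lacking admB (∆admB, del-pyrG del-admB[pyrG+ ligD+]). All strains grew on wheat bran solid medium at 30 °C for 72 h. The labels name neither separate flasks for the 5 libraries of a strain nor more than 1 isolate per genotype, so p-values measure the spread between libraries, which may be technical, and a change caused by the deletion and one carried by the isolate cannot be told apart.

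ADAM proteins are metalloproteases anchored in the membrane, which in animals cut the outer parts off other membrane proteins, among them growth factors and receptors. Filamentous fungi also carry genes of this family, and the comparison asks which transcripts differ when admA alone is lost. Solid bran culture is the setting in which this fungus secretes starch-, cell-wall- and protein-degrading enzymes and forms aerial hyphae and conidia.

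The unit is RPKM, a read number divided by gene length and by the mapped reads of its library. Of 12074 listed genes, 10295 reached 1 RPKM in 5 or more of these 10 libraries and were tested, on log2(RPKM + 1), with limma over all 20 libraries. A gene is described as outside the control range when its 5 ∆admA values all lay above, or all below, its 5 control values. A gene is said to rise or fall only at a limma adjusted p below 0.05. Of the tested genes 700 have a symbol in the reference table, which names no product, so genes without a symbol are given by locus tag alone.

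The RPKM sum ranged from 3974009 to 4550897 in ∆admA and from 4053109 to 4664311 in the control, and 729 to 1130 genes were listed at 0 in ∆admA and 655 to 1169 in the control. The first principal component of the 10 libraries held 34.2% of their variance. On it ∆admA replicates 1 to 5 scored 66.2, 2.86, -22.3, -62.4 and -92.8. Control replicates 1 to 5 scored 57.0, 30.0, 61.9, 47.1 and -87.5. The scores of ∆admA thus fell with replicate number. ∆admA replicate 1 lay closest to control replicates 3 and 1. The replicate 5 libraries of both strains lay close together, so this component did not separate the strains alone. The steps of low values separated the 20 libraries into 2 sets of unknown origin. Set 1 held 3 ∆admA and 2 control libraries, and set 2 held 2 ∆admA and 3 control libraries.

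The targeted gene, admA (AO090138000114), was listed at 0 in ∆admA replicates 1, 2, 3 and 5 and at 0.092 RPKM in replicate 4, against 0.249, 0.104, 0, 0.130 and 14.2 RPKM in control replicates 1 to 5. The gene was thus scarcely present in 4 of the 5 controls, and the groups overlapped at 0. The mean log2 difference was -0.89 (two-sided exact permutation test, p = 0.048). Most of this difference came from control replicate 5. The gene admA did not meet the level required for testing across genes. Of the 5 listed genes on each side of admA, 5 were tested, and their differences of -0.48 to 1.88 had adjusted p-values of 0.77 to 0.92. The marker pyrG (AO090011000868) was at 59.6, 28.7, 21.1, 15.6 and 10.3 RPKM in ∆admA and 49.8, 45.5, 48.1, 36.3 and 6.83 RPKM in the control (log2 difference -0.44 with SE 0.55, adjusted p = 0.88), so the ranges overlapped.

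In 205 of the 10295 tested genes, or 1.99%, the ∆admA values lay wholly outside the control values. Of these genes 96 (0.932%) were higher and 109 (1.06%) lower in ∆admA. By limma 110 genes (1.07%) passed, 48 of them higher (0.466%) and 62 lower (0.602%), and 97 differed by at least 1 log2 unit. An unadjusted p under 0.05 was found for 1067 genes (10.4%). Both criteria held for 73 genes, 31 higher and 42 lower. The 96 higher genes had a median log2 difference of 1.22 (0.17 to 5.44), and a median level of 43.0 RPKM in ∆admA and 16.2 RPKM in the control. The 109 lower genes had a median of -1.29 (-4.99 to -0.16), at 11.1 RPKM in ∆admA and 44.2 RPKM in the control. The median difference of all tested genes was 0.00.

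The number of genes depended on the libraries. Leaving out ∆admA replicate 1 gave 306 genes past the threshold, and leaving out ∆admA replicates 2 to 5 gave 73, 25, 59 and 37. Without control replicates 1 to 5 the counts were 78, 70, 64, 59 and 96. With the spread taken from the 10 libraries alone, 2 genes passed, 1 of them from the 110, and 972 had an unadjusted p under 0.05. Within library set 1 limma passed 2 genes and within set 2 it passed 4, while all 110 kept their direction in both sets, on libraries used to choose them. Of the 110, 23 passed whichever of the 20 libraries was left out, 8 higher and 15 lower. Genes outside the control range numbered 647 without ∆admA replicate 1, 322 without control replicate 1 and 610 without control replicate 5. Leaving out any other of the 10 libraries gave 240 to 289, and fewer libraries make non-overlap easier by construction. ∆admA replicate 1 was the ∆admA library nearest to the controls in 46 of the 96 higher genes (47.9%) and 56 of the 109 lower ones (51.4%).

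**Figure D1:**
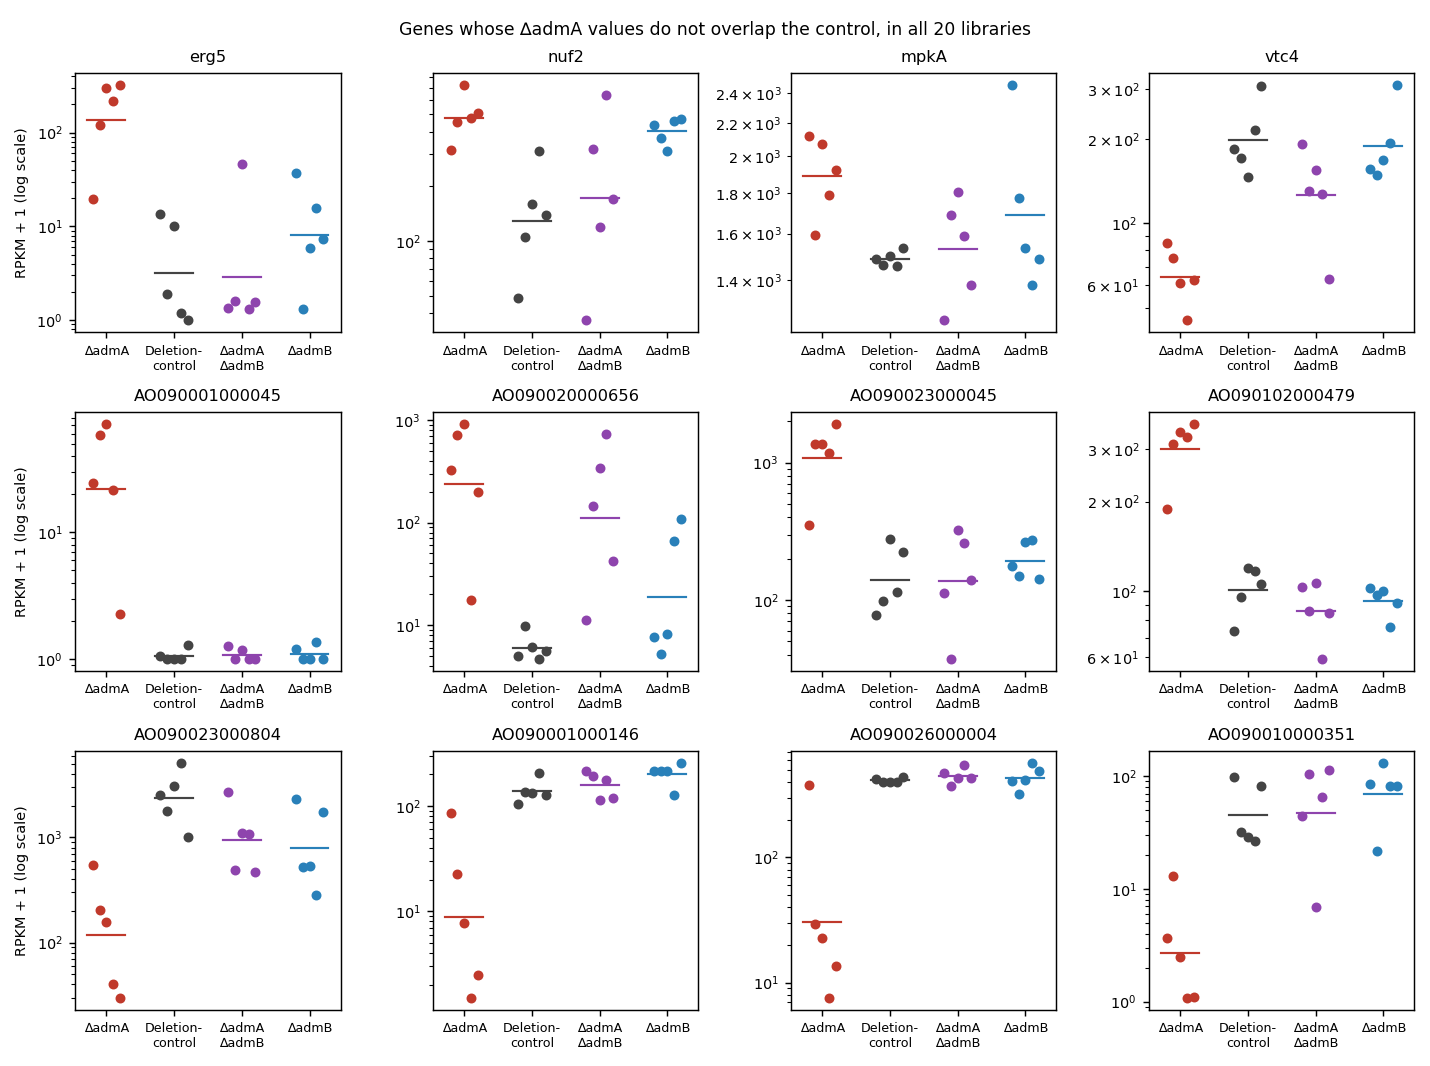
RPKM + 1 on a log scale (vertical axis) of 12 genes in the 5 libraries of each of 4 strains (horizontal axis, replicates 1 to 5 from left to right), with bars at the mean of log2(RPKM + 1). In ∆admA, vtc4 and the 4 genes of the bottom row lay below the control range and the other 7 genes above it, and in AO090026000004 ∆admA replicate 1, at 378 RPKM, lay close to the controls at 397 to 440.3 RPKM.

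Only 4 of the 205 genes had a symbol. The largest rise was that of erg5 (AO090003000954), which encodes sterol C-22 desaturase, a cytochrome P450 near the end of ergosterol synthesis. It was at 18.6, 118, 295, 218 and 322 RPKM in ∆admA replicates 1 to 5, against 12.5, 0.922, 9.22, 0.205 and 0 RPKM in control replicates 1 to 5 (log2 difference 5.44 with SE 1.13, adjusted p = 0.024). Replicate 1 of ∆admA lay just above the highest control, which was also a replicate 1, and the other 4 lay far above every control. In the other strains erg5 was at 0.321 to 45.1 RPKM in ∆admA∆admB and 0.328 to 35.9 RPKM in ∆admB. Both ranges reached above ∆admA replicate 1. The difference was 4.92 within library set 1 and 6.03 within library set 2, on libraries that had chosen the gene and so fixed its sign. With the spread of the 10 libraries alone erg5 did not pass (limma, adjusted p = 0.11). The call was lost without ∆admA replicates 2, 3, 4 and 5 or Deletion-control replicates 2, 4 and 5 (adjusted p = 0.0502 to 0.0812). Of 16 tested genes of ergosterol synthesis, which leads from acetyl-CoA through mevalonate and squalene to the main sterol of fungal membranes, 1 rose, where 0.466% of all tested genes did, none fell, and the median log2 difference was 0.15. The squalene synthase gene erg9 differed by 0.86 (adjusted p = 0.72), the squalene epoxidase gene erg1 by 0.36 (adjusted p = 0.9) and the isopentenyl diphosphate isomerase gene idi1 by -0.89 (adjusted p = 0.72).

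The gene nuf2 (AO090026000704), whose product in yeasts is part of the Ndc80 complex that ties kinetochores to microtubules, was at 316, 450.4, 722, 472 and 506 RPKM in ∆admA and 47.4, 104, 158, 313 and 138 RPKM in the control. The ranges met closely, at 316 RPKM in ∆admA replicate 1 and 313 RPKM in control replicate 4. Its difference did not pass (log2 difference 1.89 with SE 0.58, adjusted p = 0.16). In the other strains it was at 35.6 to 633 RPKM in ∆admA∆admB and 310.3 to 466 RPKM in ∆admB.

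The gene mpkA (AO090009000199), the mitogen-activated protein kinase of the cell wall integrity pathway, was at 2118, 1591, 2073, 1786 and 1920.1 RPKM in ∆admA and 1486, 1459, 1498, 1455 and 1535 RPKM in the control. The controls were tight, and the lowest ∆admA value lay just above the highest of them. The difference was small and did not pass (log2 difference 0.34 with SE 0.16, adjusted p = 0.47). In this pathway sensors in the plasma membrane act through the GTPase Rho1 and protein kinase C on a kinase cascade that ends in mpkA and the transcription factor rlmA. All 6 tested members, among them mpkA, which the rule had selected, had a positive difference, where 49.95% of all tested genes had one. None passed, where 1.07% of all tested genes did, and the median was 0.31. The regulator rlmA differed by 0.50 (adjusted p = 0.7), the upstream kinase gene bck1 by 0.48 (adjusted p = 0.63), pkcA by 0.28 (adjusted p = 0.61), the exchange factor gene rom2 by 0.18 (adjusted p = 0.79) and rho1 by 0.05 (adjusted p = 0.95). Summed over the 6, the level was 13777 to 17581 RPKM in ∆admA and 12764 to 15099 RPKM in the control.

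The gene vtc4 (AO090011000795) fell. In yeast its product polymerises phosphate into polyphosphate at the vacuole, the main phosphate store of fungi. It was at 84.2, 74.1, 60.4, 44.1 and 61.7 RPKM in ∆admA and 183, 169, 145, 214 and 307 RPKM in the control (log2 difference -1.62 with SE 0.29, adjusted p = 0.013), and each ∆admA library lay below the lowest control. The difference was -1.93 within library set 1 and -1.36 within library set 2, on libraries that had chosen the gene and so fixed its sign. The call held whichever of the 20 libraries was left out. With the spread of the 10 libraries alone vtc4 did not pass (limma, adjusted p = 0.11). Of the 3 tested genes of the phosphate list, vtc4 was the one past the threshold, where 1.07% of all tested genes were. The others, phoB and phoC, differed by 0.30 (adjusted p = 0.75) and -0.49 (adjusted p = 0.75).

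Among genes without a symbol, AO090001000045 rose, and was nearly absent in the control. It was at 23.3, 57.7, 70.6, 20.6 and 1.27 RPKM in ∆admA and 0.056, 0, 0, 0 and 0.292 RPKM in the control (log2 difference 4.36 with SE 0.61, adjusted p = 0.0045), with 0 to 0.276 RPKM in ∆admA∆admB and 0 to 0.369 RPKM in ∆admB. With every control below 1 RPKM it met the level required for testing through ∆admA alone, so its difference follows in part from that requirement. AO090020000656 was at 323, 712, 915, 16.7 and 196 RPKM in ∆admA and 4.02, 8.80, 5.17, 3.67 and 4.55 RPKM in the control (log2 difference 5.30 with SE 1.17, adjusted p = 0.034). It was unlike AO090001000045 in also being high in the strain lacking both genes, at 10.3 to 722 RPKM, against 4.28 to 107 RPKM in ∆admB. Its call was lost without ∆admA replicates 2, 3 and 5 or Deletion-control replicates 1, 2, 3, 4 and 5 (adjusted p = 0.059 to 0.108).

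AO090023000045 rose to 349.8, 1370.3, 1359.9, 1175 and 1916 RPKM in ∆admA, against 76.6, 97.8, 277, 114 and 222 RPKM in the control (log2 difference 2.94 with SE 0.55, adjusted p = 0.014). AO090023000047, 2 places along, rose to 21.8, 33.8, 35.9, 30.0 and 41.1 RPKM in ∆admA, against 5.15, 5.15, 13.6, 8.37 and 6.58 RPKM in the control (log2 difference 1.99 with SE 0.32, adjusted p = 0.0084), and held whichever library was left out. The gene between them, AO090023000046, was at 430.0, 371, 409.5, 273 and 433 RPKM in ∆admA and 78.0, 111, 140.5, 83.4 and 4863 RPKM in the control. Control replicate 5 alone lay above all 5 ∆admA values of that gene, and the other 4 controls lay below them. The call of AO090023000045 was lost without ∆admA replicates 3 and 5 (adjusted p = 0.0506 to 0.0519).

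The other 5 of the 10 largest rises not described above were of 2.05 to 2.89 log2 units. AO090102000168 was at 43.1 to 86.0 RPKM in ∆admA and 1.86 to 27.02 RPKM in the control (log2 difference 2.89 with SE 0.68, adjusted p = 0.049), a call lost in 24 of 34 alternatives and without 16 of the 20 libraries. AO090103000289 was at 10.7 to 37.0 RPKM in ∆admA and 0.871 to 7.20 RPKM in the control (log2 difference 2.78 with SE 0.56, adjusted p = 0.018), and AO090124000007 at 9.46 to 35.7 RPKM in ∆admA and 0 to 4.21 RPKM in the control (log2 difference 2.56 with SE 0.50, adjusted p = 0.017). The call of AO090103000289 was lost without ∆admA replicates 2, 3 and 5 or Deletion-control replicates 1 and 4 (adjusted p = 0.0514 to 0.0623), and that of AO090124000007 without ∆admA replicate 3 (adjusted p = 0.0582). AO090701000904 was at 13.2 to 46.9 RPKM in ∆admA and 2.16 to 9.08 RPKM in the control (log2 difference 2.05 with SE 0.39, adjusted p = 0.015), a call lost without ∆admA replicate 3 (adjusted p = 0.0542). AO090001000024 is described with its neighbours below.

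The largest fall past both criteria was that of AO090023000804, at 550.3, 205, 157, 39.7 and 28.8 RPKM in ∆admA and 2526, 1779.8, 3067, 5133 and 1019 RPKM in the control (log2 difference -4.33 with SE 0.77, adjusted p = 0.013). It held whichever library was left out. AO090010000351 was at 2.66, 12.1, 1.502, 0.08 and 0.105 RPKM in ∆admA and 98.2, 30.8, 27.9, 25.8 and 80.9 RPKM in the control (log2 difference -4.08 with SE 0.78, adjusted p = 0.015). The difference was -5.78 within library set 1 and -2.34 within library set 2, on libraries that had chosen the gene and so fixed its sign. The call was lost without ∆admA replicates 3 and 5 (adjusted p = 0.0512 to 0.0521). In AO090023000804 the values of ∆admA∆admB, 465 to 2705 RPKM, and of ∆admB, 284 to 2308 RPKM, also reached below the control range.

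AO090026000004 and AO090026000002 fell on both sides of AO090026000003. AO090026000004 was at 378, 28.3, 21.8, 6.54 and 12.6 RPKM in ∆admA and 424, 397, 399, 401 and 440.3 RPKM in the control (log2 difference -3.76 with SE 0.67, adjusted p = 0.013), with 373 to 548 RPKM in ∆admA∆admB and 318 to 570.0 RPKM in ∆admB. The 4 ∆admA libraries other than replicate 1 stood apart, at 28.3 RPKM or less. AO090026000002 was at 571, 107, 43.3, 53.9 and 58.8 RPKM in ∆admA and 861, 802, 971, 867 and 2446 RPKM in the control (log2 difference -3.46 with SE 0.59, adjusted p = 0.011). Both held whichever library was left out. The gene between them also passed, at 471, 41.0, 26.5, 16.0 and 12.02 RPKM in ∆admA and 394, 289.7, 274, 209 and 452 RPKM in the control (log2 difference -2.92 with SE 0.68, adjusted p = 0.045), but its ∆admA replicate 1 lay above all 5 controls. In each of the 3 genes replicates 2 to 5 of ∆admA were low and replicate 1 was the highest ∆admA library.

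A further stretch of lower genes was AO090001000145 to AO090001000148. AO090001000145 was at 2.91, 1.07, 0.095, 0.281 and 0 RPKM in ∆admA and 4.41, 9.36, 7.22, 10.6 and 6.12 RPKM in the control (log2 difference -2.34 with SE 0.38, adjusted p = 0.0084). AO090001000146 was at 84.6, 21.4, 6.74, 0.498 and 1.497 RPKM in ∆admA and 103, 135, 132, 206 and 128 RPKM in the control (log2 difference -3.96 with SE 0.75, adjusted p = 0.015). AO090001000148 was at 383, 106, 8.94, 2.35 and 45.3 RPKM in ∆admA and 446, 755, 570.0, 489.9 and 696 RPKM in the control (log2 difference -3.996 with SE 0.88, adjusted p = 0.034). In each of these 3 genes ∆admA replicate 1 was the highest of its strain and nearest to the controls. AO090001000147, between them, overlapped in replicate 1, at 0 to 16.1 RPKM in ∆admA and 13.5 to 44.9 RPKM in the control (log2 difference -2.85 with SE 0.68, adjusted p = 0.051). In the 10 libraries of the other strains AO090001000146 was at 114 to 216 RPKM in ∆admA∆admB and 126 to 257 RPKM in ∆admB, and the listed genes on either side of the stretch, AO090001000144 and AO090001000149, differed by -0.28 (adjusted p = 0.88) and -0.36 (adjusted p = 0.82). The call of AO090001000145 held whichever library was left out, that of AO090001000146 was lost without ∆admA replicates 3 and 5 (adjusted p = 0.0512 to 0.0519) and that of AO090001000148 without ∆admA replicates 3, 4 and 5 or Deletion-control replicates 1, 2, 3, 4 and 5 (adjusted p = 0.0584 to 0.108).

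Of the other large falls, AO090102000043 was at 1.05 to 15.8 RPKM in ∆admA and 16.9 to 253 RPKM in the control (log2 difference -3.61 with SE 0.75, adjusted p = 0.023), AO090020000703 at 89.8 to 1194 RPKM in ∆admA and 1401 to 3583 RPKM in the control (log2 difference -2.66 with SE 0.53, adjusted p = 0.017), and AO090010000496 at 1.86 to 9.04 RPKM in ∆admA and 14.4 to 42.4 RPKM in the control (log2 difference -2.31 with SE 0.37, adjusted p = 0.0084). AO090010000496 held whichever library was left out. The call of AO090102000043 was lost without ∆admA replicates 3, 4 and 5 or Deletion-control replicates 1, 3 and 4 (adjusted p = 0.0549 to 0.0816), and that of AO090020000703 without ∆admA replicates 3 and 5 or Deletion-control replicate 2 (adjusted p = 0.0501 to 0.0555).

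Genes outside the control range lay next to each other. In fungi, genes of one biosynthetic or catabolic pathway often stand side by side and are transcribed together. In the order of the reference table, 41 of the 205 genes formed 16 runs of directly neighbouring genes that lay outside the control range in the same direction, 7 runs higher and 9 lower. Of these runs 11 were pairs, 2 had 3 genes, 2 had 4 and the longest had 5. With each gene counted once, 162 tested genes stood directly beside one of the 96 higher genes, and 20 of these (12.3%) were themselves above the control range, against 0.932% of all tested genes. Beside the 109 lower genes stood 175 tested genes, of which 21 (12%) were below the control range, against 1.06%. The difference was positive in 66.7% of the genes beside higher genes and negative in 72% of those beside lower genes, where 49.9% and 50.1% of all tested genes had such signs. These shares include the 20 and 21 genes that were themselves outside the control range, whose sign the rule fixed. No gene in a run had a symbol, 15 of the 41 passed limma, and in none of the 16 runs did the gene models overlap in the reference table. With 1 listed gene allowed between members there were 20 runs, of 53 genes. Without ∆admA replicate 1 there were 68 runs, and without control replicate 5 there were 48. Leaving out any other of the 10 libraries gave 17 to 23, and fewer libraries make non-overlap easier by construction.

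The longest run was AO090026000771 to AO090026000767, with differences of 1.10 to 2.23. AO090026000771 was at 32.9, 12.8, 13.5, 13.9 and 13.6 RPKM in ∆admA and 0.940, 9.74, 0.874, 1.88 and 4.89 RPKM in the control (log2 difference 2.23 with SE 0.54, adjusted p = 0.056). Its replicate 1 stood far above the other ∆admA libraries, and control replicate 2 far above the other controls. AO090026000770 was at 37.9, 18.7, 16.7, 15.6 and 13.8 RPKM in ∆admA and 6.32, 6.25, 7.48, 5.13 and 2.00 RPKM in the control (log2 difference 1.73 with SE 0.39, adjusted p = 0.038), and AO090026000768 at 5.23 to 11.04 RPKM in ∆admA and 1.24 to 3.48 RPKM in the control (log2 difference 1.29 with SE 0.28, adjusted p = 0.034). The call of AO090026000770 was lost in 20 of 34 alternatives and without 14 of the 20 libraries, and that of AO090026000768 without ∆admA replicates 2, 3 and 5 or Deletion-control replicates 2, 3 and 5 (adjusted p = 0.0512 to 0.109). The remaining members, AO090026000769 and AO090026000767, differed by 1.43 (adjusted p = 0.17) and 1.10 (adjusted p = 0.068). Both flanks ended sharply, with -0.15 (adjusted p = 0.94) at AO090026000772 and 0.17 (adjusted p = 0.9) at AO090026000766.

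The run AO090102000480 to AO090102000477 was higher in ∆admA. It held a very abundant gene, AO090102000480, at 4419.7, 4969, 4572, 4045 and 3074 RPKM in ∆admA and 1552, 1363, 2579, 2240.2 and 776 RPKM in the control (log2 difference 1.41 with SE 0.50, adjusted p = 0.25). Its neighbour AO090102000479 was at 188, 310.5, 340.5, 328 and 363 RPKM in ∆admA and 72.5, 94.9, 119, 116 and 105 RPKM in the control (log2 difference 1.57 with SE 0.21, adjusted p = 0.0026), at 58.3 to 106 RPKM in ∆admA∆admB and at 74.99 to 102 RPKM in ∆admB. It shared the lowest adjusted p of all tested genes with AO090010000448 and held whichever library was left out. Its 5 ∆admA values lay above all 15 other libraries, as in 41 of the 96 higher genes. The rule had already set these genes above the 5 controls. AO090102000477 was at 58.1 to 178 RPKM in ∆admA and 17.6 to 37.7 RPKM in the control (log2 difference 1.88 with SE 0.35, adjusted p = 0.014), a call lost without ∆admA replicate 3 (adjusted p = 0.0519), and AO090102000478 differed by 0.94 (adjusted p = 0.44). The gene beyond the run, AO090102000482, differed by 1.94 (adjusted p = 0.014) with overlapping values, and AO090102000476 on the other side by -0.21 (adjusted p = 0.9).

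The run AO090103000497 to AO090103000494 was lower in ∆admA by 0.45 to 0.88 log2 units, and none of its 4 genes passed (adjusted p = 0.11 to 0.15). The controls were close together, as in AO090103000495, at 156, 168, 189, 166 and 155 RPKM in ∆admA and 240.0, 214, 216, 220.3 and 248 RPKM in the control. The stretch went on to the next genes. AO090103000499, which is a member of another pair of this kind with AO090103000502, was at 329.6, 182, 151, 109.8 and 43.6 RPKM in ∆admA and 601, 572, 685, 885 and 504 RPKM in the control (log2 difference -2.24 with SE 0.41, adjusted p = 0.014), and held whichever library was left out. AO090103000498, between these runs, was at 11.1 to 64.8 RPKM in ∆admA and 63.6 to 172 RPKM in the control (log2 difference -2.23 with SE 0.48, adjusted p = 0.029), overlapping in a single pair of libraries. All 7 neighbours in reference order, AO090103000502 to AO090103000494, had negative differences. The rule had fixed this sign in all of them but AO090103000498.

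In the run AO090011000434 to AO090011000436 all 3 genes were higher in ∆admA and none passed (adjusted p = 0.14 to 0.38). AO090011000434 was at 986, 1181, 1822, 1324 and 830.0 RPKM in ∆admA and 392.4, 519.8, 782, 580.4 and 34.0 RPKM in the control. Control replicate 5 was far below the other controls in it and in AO090011000435, at 23.7 to 58.1 RPKM in ∆admA and 0.587 to 22.6 RPKM in the control. AO090011000436 was at 26.8 to 54.9 RPKM in ∆admA and 11.4 to 26.6 RPKM in the control. In the run AO090120000059 to AO090120000062 the first 2 genes fell. AO090120000059 was at 22.5, 10.1, 9.004, 3.01 and 9.36 RPKM in ∆admA and 41.0, 29.5, 25.5, 23.8 and 54.3 RPKM in the control (log2 difference -1.75 with SE 0.36, adjusted p = 0.021), and AO090120000060 at 10.1, 5.06, 3.59, 3.22 and 5.11 RPKM in ∆admA and 18.3, 16.4, 15.1, 17.3 and 32.0 RPKM in the control (log2 difference -1.73 with SE 0.25, adjusted p = 0.0048). The call of AO090120000060 held whichever library was left out, and that of AO090120000059 was lost without ∆admA replicates 3 and 5 or Deletion-control replicates 1 and 5 (adjusted p = 0.0517 to 0.059). The third gene, AO090120000062, differed by -0.63 (adjusted p = 0.48) at 2.34 RPKM or less in both strains.

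Among the pairs, AO090005000307 and AO090005000306 fell together. AO090005000307 was at 72.2, 23.2, 17.3, 11.6 and 28.5 RPKM in ∆admA and 90.9, 80.3, 90.7, 115 and 332 RPKM in the control (log2 difference -2.22 with SE 0.49, adjusted p = 0.035), and AO090005000306 at 7.19 to 16.9 RPKM in ∆admA and 19.5 to 69.6 RPKM in the control (log2 difference -1.93 with SE 0.41, adjusted p = 0.026). The first call was lost in 13 of 34 alternatives and the second in 11 of 34, in both without any of ∆admA replicates 2 to 5. AO090010000704 lay above the control range at 34.4, 54.9, 521, 43.3 and 44.99 RPKM in ∆admA and 2.09, 29.2, 1.12, 0.440 and 0.414 RPKM in the control and did not pass (log2 difference 4.46 with SE 1.23, adjusted p = 0.11). Its neighbour AO090010000705 was at 83.3 to 113 RPKM in ∆admA and 37.3 to 70.5 RPKM in the control (log2 difference 0.84 with SE 0.26, adjusted p = 0.16).

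**Figure D2:**
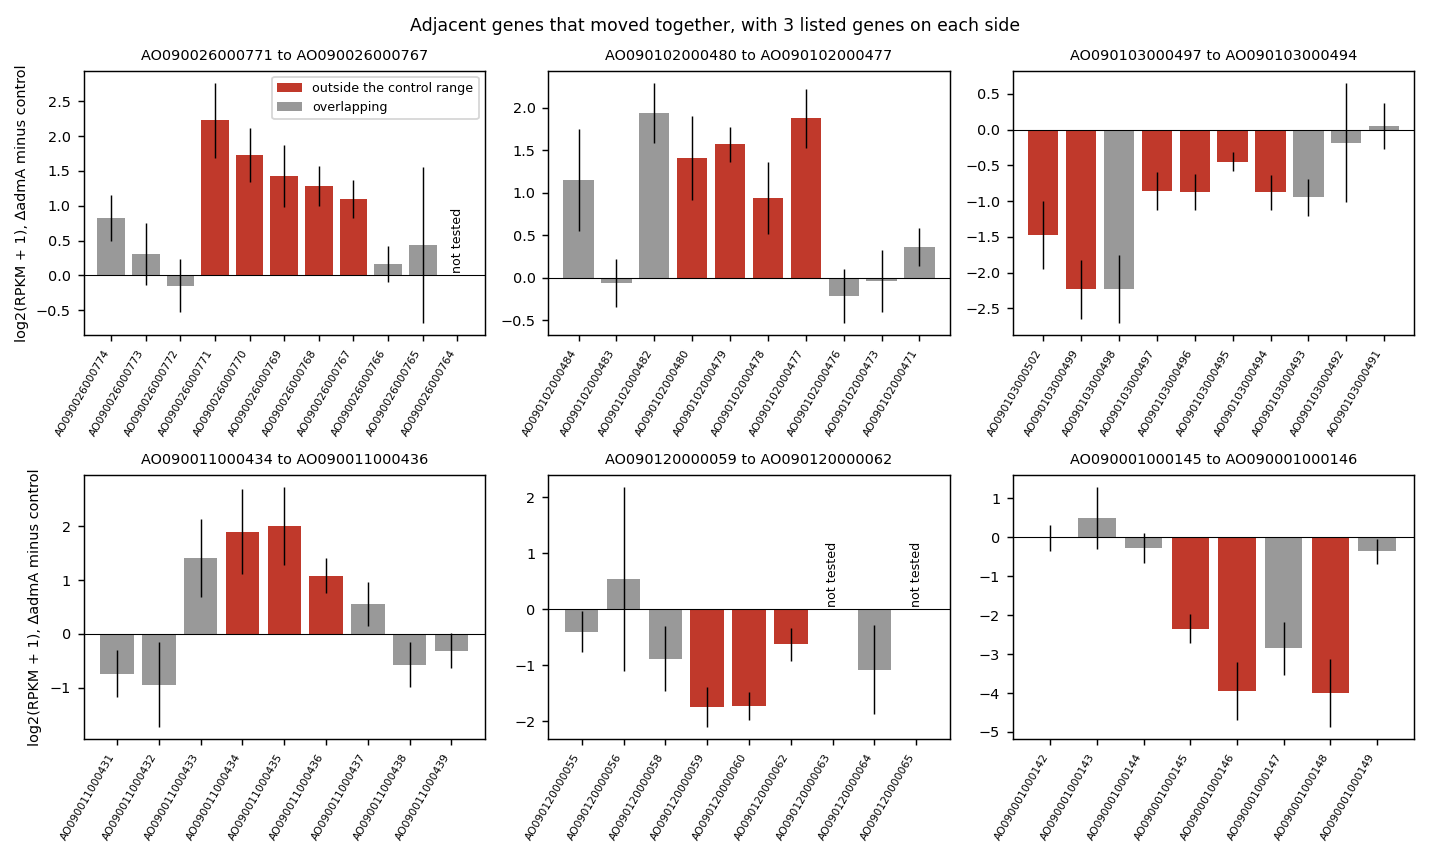
Difference in log2(RPKM + 1), ∆admA minus control, with its standard error (vertical axis) for the 5 longest runs and for AO090001000145 to AO090001000146, each with 3 listed genes on either side in reference order (horizontal axis). Red bars lay outside the control range and grey bars overlapped it; genes below the level required are marked as not tested, and the differences within AO090026000771 to AO090026000767 were 1.10 to 2.23.

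The genes with gli symbols lie in one stretch that was examined after its values had been seen. In Aspergillus fumigatus the gli genes form the cluster for gliotoxin, an epidithiodioxopiperazine toxin built from phenylalanine and serine by the peptide synthetase GliP and finished by, among others, the P450 GliC, the glutathione S-transferase GliG, the dipeptidase GliJ and the C-S lyase GliI. Whether the A. oryzae genes make such a compound is not known from these data. From gliK (AO090001000030) to gliP (AO090001000043), the first and last gene with such a symbol, there are 14 listed genes, of which 7 carry gli symbols and 12 were tested. Of the tested genes 10 had a positive difference, where 49.95% of all tested genes had one, and the median was 1.25. Of the 12, gliK rose, where 0.466% of all tested genes did, none fell, and 1 lay above the control range, where 0.932% of all did. On either side of this span AO090001000024 and AO090001000045 rose, and they are named because they did.

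The gene gliK was at 2.77, 4.87, 3.65, 1.47 and 3.87 RPKM in ∆admA and 1.15, 1.96, 1.25, 0.383 and 0.724 RPKM in the control (log2 difference 1.04 with SE 0.23, adjusted p = 0.036), with ∆admA replicate 4 inside the control range. Its call was lost without ∆admA replicates 2, 3 and 5 or Deletion-control replicates 1, 3, 4 and 5 or ∆admB replicates 2 and 3 (adjusted p = 0.0511 to 0.114). AO090001000024 was at 3.21, 44.8, 23.5, 7.03 and 9.72 RPKM in ∆admA and 1.89, 2.09, 0.995, 1.85 and 0.301 RPKM in the control (log2 difference 2.52 with SE 0.53, adjusted p = 0.025), a call lost without ∆admA replicates 2, 3 and 5 or Deletion-control replicates 3, 4 and 5 (adjusted p = 0.0521 to 0.086). AO090001000031 lay above the control range, at 14.8 to 36.3 RPKM in ∆admA and 5.71 to 12.2 RPKM in the control, and did not pass (log2 difference 1.46 with SE 0.41, adjusted p = 0.11).

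The gene gliI was at 1.23, 11.7, 18.5, 1.70 and 1.05 RPKM in ∆admA and 0.767, 0, 0, 3.77 and 0 RPKM in the control (log2 difference 1.70 with SE 0.57, adjusted p = 0.21). The gene gliC was at 0.476, 17.5, 5.66, 0.722 and 12.8 RPKM in ∆admA and 0.241, 0.271, 2.65, 0.253 and 1.27 RPKM in the control (log2 difference 1.61 with SE 0.72, adjusted p = 0.44). ∆admA replicates 2 and 3 were the high ones in gliI, and replicates 2, 3 and 5 in gliC. The gene gliP, not tested for its low level, was at 0.179, 1.12, 0.676, 0.07 and 0.139 RPKM in ∆admA and 0.054, 0.036, 0.038, 0.09 and 0 RPKM in the control. The methyltransferase gene gliM differed by 0.28 (adjusted p = 0.59), gliG by 1.65 (adjusted p = 0.79) with 592 RPKM in ∆admA replicate 4, and gliJ by -0.62 (adjusted p = 0.87). The 3 genes AO090001000045, AO090001000024 and AO090001000031 had all 5 ∆admA values above all 15 other libraries. The rule had already set them above 5 of these, the controls. Of the 96 higher genes, 41 lay above all 15, and so 41 of all 10295 tested genes did.

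**Figure D3:**
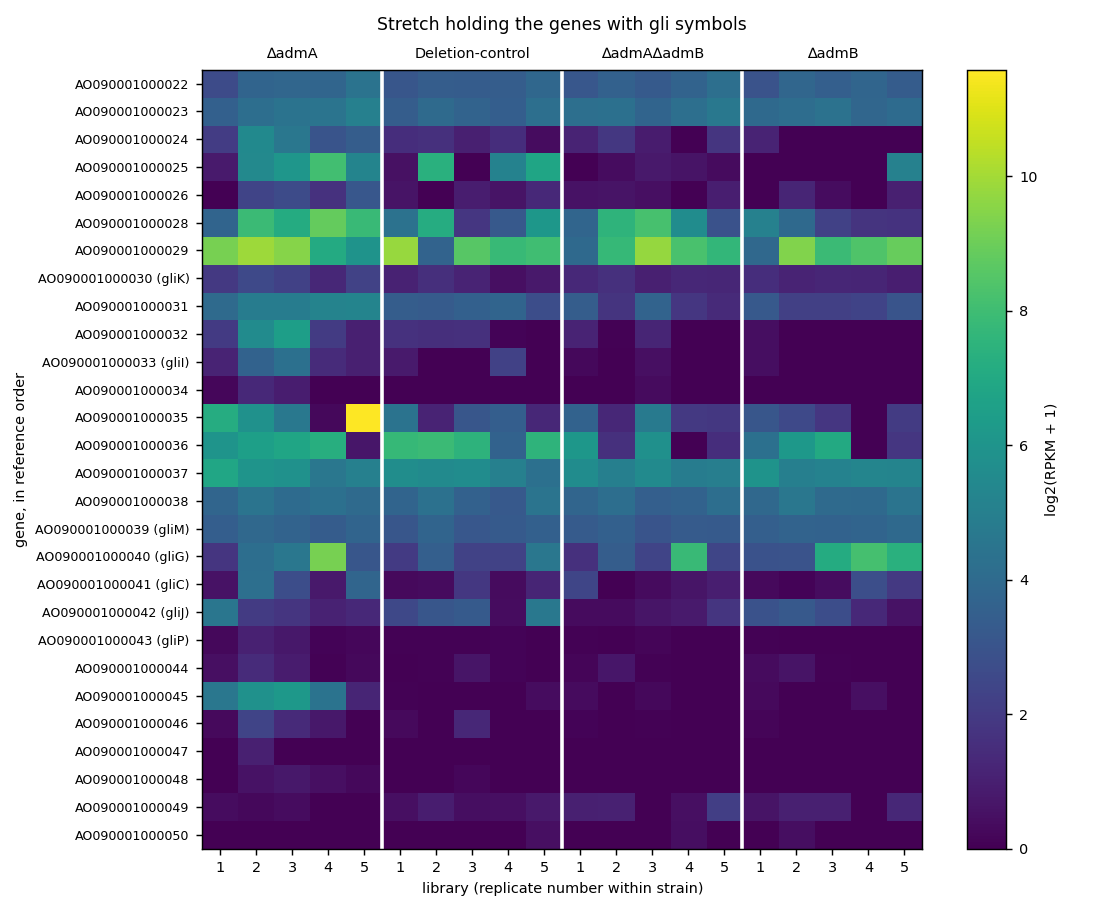
log2(RPKM + 1) (colour) of the listed genes from AO090001000022 to AO090001000050 in reference order (vertical axis) in the 20 libraries, by strain and replicate (horizontal axis). AO090001000045 was at 1.27 to 70.6 RPKM in the 5 ∆admA libraries and at most 0.369 RPKM in the other 15, and ∆admA replicates 2 and 3 were the highest of their strain in it.

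The other gene lists held few or no calls, where 1.07% of all tested genes passed. At that share, lists this short would hold few or none. Among 17 tested genes of secondary metabolism gliK alone passed, and the median was 0.28. In the same list fmpR and fmpF differed by 1.79 (adjusted p = 0.28) and 1.03 (adjusted p = 0.55). Chitin synthesis had none of 9 (median 0.08, range -0.23 to 0.42), and glucan and cell wall remodelling none of 10 (median -0.11), with the glucanosyltransferase gene gel2 at 0.90 (adjusted p = 0.77) and the alpha-1,3-glucan synthase gene ags3 at -0.73 (adjusted p = 0.44). Secretory pathway folding had none of 5 past the threshold. All 5 were positive (median 0.28), where 49.95% of all tested genes were, led by the chaperone gene bipA at 0.71 (adjusted p = 0.68). Of 3 genes of plant polysaccharide degradation, the xylanolytic regulator xlnR differed by 0.47 (adjusted p = 0.44), the beta-xylosidase gene xlnD by 1.41 (adjusted p = 0.64) and the alpha-glucuronidase gene aguA by 1.02 (adjusted p = 0.74). Autophagy had none of 4 past the threshold (median -0.05). The lists of secreted proteases and of membrane proteases had 1 tested member each, lap1 at -0.03 (adjusted p = 0.98) and the processing protease gene kexB at 0.03 (adjusted p = 0.97). No kojic acid gene carries a symbol in the table.

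Conidiophores and conidia are cells that a culture could hold beside hyphae. Of 11 tested genes of conidiation and conidial pigment, none passed, where 1.07% of all tested genes did. The median was -0.03, and 4 of the 11 had a positive difference, where 49.95% of all tested genes had one. Their summed level was 1376 to 3833 RPKM in ∆admA and 1883 to 2883 RPKM in the control. The regulator brlA was at 90.2, 3.95, 3.14, 2.02 and 2.86 RPKM in ∆admA and 46.7, 3.69, 14.5, 3.19 and 1.60 RPKM in the control, highest in replicate 1 of both strains. The regulator fluG was at 257, 90.4, 51.5, 35.1 and 43.4 RPKM in ∆admA and 169, 136, 141, 134 and 28.1 RPKM in the control, and the pigment synthase gene pksP at 9.49, 4.46, 3.12, 2.63 and 3.39 RPKM in ∆admA and 4.62, 5.67, 4.22, 4.77 and 2.76 RPKM in the control. In all 3 genes ∆admA replicate 1, the library that lay nearest to the controls in many of the genes above, was the highest of the 10. It was also the highest in ayg1, veA and vosA, but not in wetA, flbA, flbB and flbD. In medA it was the lowest of the 10, at 167 RPKM. The regulator wetA averaged 10.6 ± 1.66 RPKM in ∆admA and 12.8 ± 0.825 RPKM in the control (SD, n = 5 each). The gene ayg1, of pigment synthesis, stood at 1745, 799, 1.79, 1.16 and 1018 RPKM in ∆admA and 1.95, 2.24, 87.1, 1.25 and 738 RPKM in the control (log2 difference 2.52 with SE 2.46, adjusted p = 0.83), high in some libraries of both strains. In bulk RNA, fewer cells of a type and less RNA per cell cannot be told apart, and the part of conidiation in the results above was not tested.

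Loss of admA could be examined in libraries that the selection had not used, by setting ∆admA∆admB against ∆admB. Of the 96 genes higher in ∆admA, 58 (60.4%) had a positive difference there, and of the 109 lower genes 74 (67.9%) had a negative one, 132 of 205 together (64.4%). Over all tested genes the 2 comparisons had the same sign in 52.2%. The differences were small. The 96 genes had a median of 0.12 and the 109 a median of -0.13, against 1.22 and -1.29 in the comparison that chose them. No gene passed in ∆admA∆admB against ∆admB (limma, smallest adjusted p = 0.79, 597 genes at an unadjusted p under 0.05, 5.80%), and 93 genes (0.903%) lay outside the ∆admB range. Of the 205, 17 had the same sign and an unadjusted p under 0.05 there, and 5 the opposite sign. Only 2 lay outside the ∆admB range in the same direction and 1 in the other.

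The log2 difference of erg5 was 5.44 in ∆admA against the control and -1.47 in ∆admA∆admB against ∆admB, that of AO090001000045 4.36 and -0.03, that of AO090026000004 -3.76 and 0.05, and that of AO090023000804 -4.33 and 0.24. For AO090020000656 it was 5.30 and 2.55, and for vtc4 -1.62 and -0.58. Of the 16 runs, 3 kept their direction throughout in ∆admA∆admB against ∆admB, 2 had the opposite direction throughout and 11 had members of both signs. Over the 12 tested genes from gliK to gliP the median was -0.20 there. The interaction, the test of whether the 2 differences differ, passed for no gene (limma, smallest adjusted p = 0.12, 674 genes at an unadjusted p under 0.05, 6.55%). Of the 205 genes 128 had an unadjusted interaction p under 0.05, but that term contains the comparison that chose them.

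**Figure D4:**
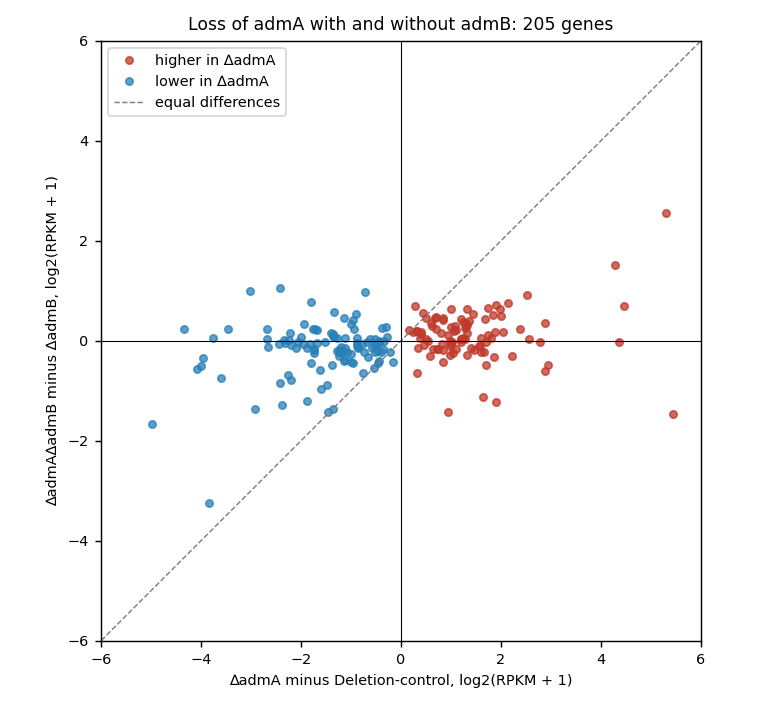
Difference in log2(RPKM + 1) of the 205 genes outside the control range, in ∆admA minus Deletion-control (horizontal axis) and in ∆admA∆admB minus ∆admB (vertical axis), which share no library. Points are genes, red for 96 higher and blue for 109 lower in ∆admA, with medians of 0.12 and -0.13 on the vertical axis.

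Against the same controls, the other strains can be set beside ∆admA only as values, since the control libraries are shared. The 96 higher genes had a median log2 difference of 1.22 in ∆admA, -0.02 in ∆admA∆admB and -0.07 in ∆admB, each against the control. The 109 lower genes had a median of -1.29 in ∆admA, -0.08 in ∆admA∆admB and 0.03 in ∆admB. In 75 of the 205 genes, 41 higher and 34 lower, the 5 ∆admA values also lay outside those of all 15 other libraries. The rule had already set the 205 genes outside 5 of these, the controls. A gene outside all 15 must be among the 205, so the count over all 10295 tested genes was also 75.

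The rule let in differences of any size. Of the 205 genes 129 differed by at least 1 log2 unit and 28 by less than 0.5. At its edge, AO090011000640 met the rule with 97.7 RPKM in its lowest ∆admA library against 97.6 RPKM in its highest control. The mannosyltransferase gene pmt4 did not meet it, with 135.4 RPKM in its highest ∆admA library against 135.3 RPKM in its lowest control. In 6 of the 205 genes, AO090001000045 among them, every library of one strain was below 1 RPKM, so that these genes met the required level through the other strain alone. Without the requirement 230 of 12074 genes lay outside the control range, and with a mean of at least 10 RPKM 148 of 8406 did.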

How the data were processed

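The authors' deposited values are RPKM per gene and library, per the file headers. The tools named, per the submitters' processing notes, were Cufflinks 2.1.1, TopHat2 2.0.9, FastQC 0.10.1 and CASAVA 1.8.2; what each did, the build, the annotation and the strandedness were not given in the sources used here, so reads of overlapping antisense genes may be shared. Depth in reads is unknown, and no count model was fitted. All 12074 identifiers matched the RefSeq table of assembly ASM18445v3, used for symbols and gene order only.

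Testing required 1 RPKM or more in 5 or more of the 10 libraries compared. One mean per strain was fitted to log2(RPKM + 1) of all 20 libraries (limma 3.58.1, R 4.3.3, eBayes with a trend, two-sided, Benjamini-Hochberg over 10295 genes, threshold 0.05). The pseudocount understates changes of low genes. Single genes were compared by exact permutation (scipy 1.17.1).

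Named genes were admA and pyrG, the 10 largest rises and falls past both criteria, genes with a symbol outside the control range, the 8 leading runs, and up to 2 calls per list and direction; flanking genes, AO090103000499 and other genes named outside this rule were chosen after their values were seen. Protein sequences were not used here to describe genes without a symbol. Leaving out single ∆admA∆admB and ∆admB libraries was chosen after seeing the data. The members and lists were chosen with earlier results of these data known. Library sets were read from whole-read steps: of ratios near the main step, 84.5% to 100.0% lay within 0.00015 log units of it within a set and 11.2% to 36.2% between sets.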

Additional observations from a re-analysis of the deposited data

Results flagged for a closer look

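In the 98 sets of 5 values examined (named genes and admA, in ∆admA and in the control, on log2(RPKM + 1)), 14 had 1 library far from the other 4. For independent, normally spread values about 1 in 20 would. Most of these genes were chosen by their values, some were neighbours that moved together, and some values lay at or near 0. The 14 are thus not a test against that share. Among ∆admA libraries, replicate 1 was lowest in AO090023000045 (349.8 RPKM) and AO090102000479 (188 RPKM) and highest in AO090026000771 (32.9 RPKM), replicate 3 was highest in AO090010000704 (521 RPKM), and replicate 4 was highest in admA (0.09 RPKM). Among controls, replicate 5 was lowest in pyrG (6.83 RPKM), AO090011000434 (34.0 RPKM) and AO090011000435 (0.59 RPKM). It was highest in AO090001000045 (0.29 RPKM), AO090026000002 (2446 RPKM), AO090120000060 (32.0 RPKM), AO090005000307 (332 RPKM) and admA (14.2 RPKM). Control replicate 2 was highest in AO090010000704 (29.2 RPKM). Control replicate 5 thus accounted for 8 of the 14.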

How the results depend on the processing

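Against 110 genes past the threshold, limma gave 204 with the replicate block, 672 with sample quality weights, 2 with the spread of only the 10 libraries, 2 within library set 1 and 4 within set 2. Leaving out 1 library gave 25 to 306. With ∆admA replicate 1 and control replicate 5 both left out, chosen after seeing the data, 513 passed, 1917 genes lay outside the control range and there were 246 runs. Against 205 genes outside the control range and 16 runs, within set 1 there were 1330 genes and 125 runs, within set 2 3866 and 672, and leaving out 1 library gave 240 to 647 genes and 17 to 68 runs; fewer libraries make non-overlap easier by construction. With a mean of at least 10 RPKM there were 10 runs. The count of 132 genes with the same sign in ∆admA∆admB against ∆admB was 115 to 139 when 1 library was left out. The split of calls into higher and lower was 65 and 56 with a pseudocount of 10, against 48 and 62. The labels do not say that replicate numbers pair the libraries, and only 3 of 5 same-number correlations exceeded 0.1, so no block was used, although some same-numbered libraries resembled each other. The deviations of same-numbered ∆admA and control libraries correlated at 0.38, 0.14, 0.06, -0.10 and 0.49 across genes, and 3 of the 5 ∆admA libraries correlated best with their own number. With the replicate block, 106 of the 110 remained. For named genes, 1386 values under the alternatives kept direction and call, 218 lost the call, 20 gained it and 1 reversed, that of pyrG within set 1 (0.18). Precision is limited by unknown depth and by 5 libraries a strain.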
